A study of Mus musculus with 6 samples.

Results

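Integrins are adhesion receptors made of 1 alpha and 1 beta chain, and 10 of their chain genes were followed here in macrophages: the alpha chains Itgal, Itgam, Itgax, Itga4, Itga5 and Itgav and the beta chains Itgb1, Itgb2, Itgb3 and Itgb5. They were chosen by symbol, as the alpha and beta chains known from myeloid cells, and are 10 of the 54532 genes measured. All 10 were found. Of these, 8 had a mean of at least 1 FPKM (fragments per kilobase of exon and 1 M, or mega, assigned fragments) over the libraries and were tested, and each of the 8 reached that level in both groups. Itgax and Itgb3 were below it and are given by their values.

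The cells were mouse bone marrow-derived macrophages, from wild-type (WT) mice or from mice deficient in 4-1BBL (4-1BBL KO), a ligand of the TNF family encoded by Tnfsf9. Both genotypes had been immortalised by retroviruses that carry v-raf and v-myc, and both had received IL-4, the cytokine of alternative macrophage activation, at 10 ng/ml for 24 hours. Poly(A) RNA of 3 libraries per genotype was sequenced. The study's title asks how 4-1BBL bears on anti-inflammatory activation, and the comparison here asks how the integrin chains differed between the genotypes under IL-4. No library without IL-4 was analysed here. Whether a genotype stands for separate cultures, animals or immortalised lines is not in the labels. The p-values therefore refer to differences among libraries that may be technical repeats, and genotype and immortalised line cannot be told apart.

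An integrin reaches the cell surface as a heterodimer, so each alpha chain needs a beta chain that it can pair with, and most beta chains accept several alpha chains. The β2 chain (CD18) is the leukocyte beta chain and pairs with αL (CD11a, in LFA-1), αM (CD11b, in Mac-1), αX (CD11c) and αD. The β1 chain pairs with many alpha chains, among them the fibronectin receptor chain α5 and α4, which binds VCAM-1 and fibronectin, while αv also pairs with β3, β5, β6 and β8. Macrophages use these receptors to leave the blood, to attach to matrix and to take up complement-coated or dying cells. The files hold transcript levels, which show for which pairs both chains are transcribed and not which pairs assemble at the surface.

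Recovered depth in M (mega) fragments ranged from 20.7 to 22.3 for WT and from 19.1 to 26.4 for KO-labelled libraries. Tnfsf9, the targeted gene, did not separate the groups: its level was 12.3 ± 2.10 FPKM in WT against 10.9 ± 0.414 FPKM in KO-labelled cells (SD, n = 3 each), so the transcript gives no check of the labels and the group is called KO-labelled below. Of 8 macrophage markers, 7 were at 1 FPKM or more in WT and all 8 in KO-labelled libraries. Their summed level was 2291 to 2342 FPKM in WT and 1343 to 1387 FPKM in KO-labelled libraries. Adgre1 (F4/80) rose from a mean of 11.8 to 268 FPKM, Lyz2 fell from 1207 to 484 FPKM, and Mertk went from 0.00720 to 4.24 FPKM. Adgre1, Lyz2 and Mertk thus moved with the genotype, as 7 of the 8 tested integrin chains did, while the marker Spi1 overlapped between the groups. The part of the markers in the results was not tested. In bulk RNA, fewer cells of a type and less RNA per cell cannot be told apart.

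The stretches of 250 bases before the start of Itga4, Itgb1 and Itgb5, which are 3 of the 4 members with a log2 difference of at least 1 in size, are shown with that of Itgam, the tested member that did not pass. They are written 5′ to 3′ on the gene's strand and were taken from RefSeq on GRCm38.p6 (mm10), where 7 of the 10 members matched an entry, all but Itgal, Itgb2 and Itgb3. Capitals mark matches, on either strand, to GGGCGG (the Sp1 GC box), GAGGAA (PU.1) or TGTGGT (RUNX), none of which overlap each other.
Itga4 (chr2:79255176-79255425, plus strand): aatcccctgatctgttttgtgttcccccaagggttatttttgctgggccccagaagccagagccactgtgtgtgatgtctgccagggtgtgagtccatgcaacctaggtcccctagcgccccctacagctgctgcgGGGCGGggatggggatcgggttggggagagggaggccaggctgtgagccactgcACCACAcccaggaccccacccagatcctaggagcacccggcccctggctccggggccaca
Itgb1 (chr8:128685404-128685653, plus strand): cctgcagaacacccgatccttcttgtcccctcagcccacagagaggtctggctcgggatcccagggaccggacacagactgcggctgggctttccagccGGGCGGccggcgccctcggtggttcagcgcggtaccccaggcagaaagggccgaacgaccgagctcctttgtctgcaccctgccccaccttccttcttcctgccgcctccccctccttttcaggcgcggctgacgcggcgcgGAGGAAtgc
Itgb5 (chr16:33829415-33829664, plus strand): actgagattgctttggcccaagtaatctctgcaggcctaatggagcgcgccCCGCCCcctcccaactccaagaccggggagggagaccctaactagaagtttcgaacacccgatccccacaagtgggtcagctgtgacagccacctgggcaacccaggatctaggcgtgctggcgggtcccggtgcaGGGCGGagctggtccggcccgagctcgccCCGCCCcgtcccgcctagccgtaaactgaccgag
Itgam (chr7:128062390-128062639, plus strand): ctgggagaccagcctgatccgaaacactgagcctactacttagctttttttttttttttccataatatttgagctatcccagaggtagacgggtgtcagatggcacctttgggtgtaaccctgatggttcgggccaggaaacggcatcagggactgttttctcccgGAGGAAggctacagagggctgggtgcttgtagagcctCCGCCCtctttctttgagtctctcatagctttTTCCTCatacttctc

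The GC box was found once before Itga4, 114 to 109 bases upstream of the start, once before Itgb1 and Itgam, and in 3 places before Itgb5. Of all 32851 promoters of this length in the table, 32.7% hold it. The PU.1 letters, named for the myeloid transcription factor, stood 9 to 4 bases before the start of Itgb1 and in 2 places before Itgam, and 23.3% of all promoters hold them. The RUNX letters occurred before Itga4 only among these 4 genes, 60 to 55 bases upstream on the opposite strand, and 14.0% of all promoters hold them. The GC content was 64.0% for Itga4, 68.0% for Itgb1 and 65.2% for Itgb5, against 49.6% for Itgam and a median of 52.4% over all promoters. CACGTG (E-box), TGANTCA (AP-1) and CCAAT were also searched, and these letters are not in the 4 windows. They occur in 6.02%, 6.75% and 33.8% of all promoters. The matches describe the sequence and are not binding sites shown by these data.

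Of the 8 tested chains, 7 differed between the genotypes by limma's test of log2(FPKM + 1), adjusted over all tested genes at 0.05. Itgal, Itgb1 and Itgb5 rose in KO-labelled libraries, Itga4, Itga5, Itgav and Itgb2 fell, and Itgam did not pass. The background was high: 60.8% of the 10843 tested genes passed, 30.6% as higher and 30.2% as lower in KO-labelled libraries. The 7 of 8 chains are set against that share, and nothing particular to integrins is read from the count. The 3 WT and 3 KO-labelled values did not overlap for the same 7 of 8 chains, and they did not overlap for 67.4% of tested genes. A log2 difference of at least 1 in size was reached by 4 chains, Itgal, Itga4, Itgb1 and Itgb5, and by 13.5% of tested genes. The median log2 difference of the 8 chains was -0.14, against 0.0055 for all tested genes, and the median of the absolute difference was 0.84 against 0.32.

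**Figure D1:**
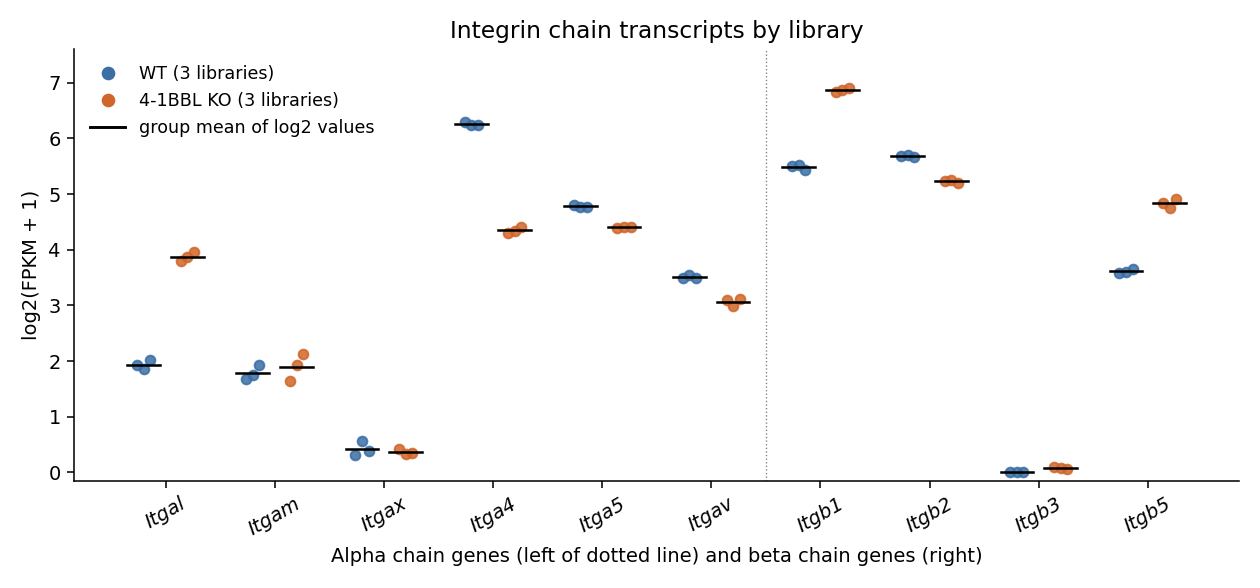
Level of each of the 10 integrin chain genes in each library, as log2(FPKM + 1). Points are libraries (3 WT, 3 KO-labelled) and bars are group means of the log2 values. Itga4 stands highest among the WT values and Itgb1 among the KO-labelled values, while the groups of Itgam and Itgax overlap.

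The β2 chain and its alpha chains are the leukocyte integrins. Itgb2 (ENSMUSG00000000290, chromosome 10, 77530252 to 77565708) encodes the shared β2 chain and was measured at 50.6, 51.3 and 50.01 FPKM in WT and at 36.9, 37.0 and 35.8 FPKM in KO-labelled libraries. All KO-labelled values lay below all WT values, with a gap larger than the spread inside either group. The mean fell 1.39-fold, from 50.7 ± 0.666 to 36.6 ± 0.654 FPKM (SD, n = 3 each). On the log2(FPKM + 1) scale the difference was -0.46 ± 0.04 (SE), with a limma adjusted p of 5.59e-05.

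Itgal (ENSMUSG00000030830, chromosome 7, 127296260 to 127335138) encodes αL, the partner of β2 in LFA-1, which binds ICAMs. Its level was 2.81, 2.64 and 3.03 FPKM in WT and 13.0, 13.6 and 14.5 FPKM in KO-labelled libraries. Thus αL moved opposite to its only beta partner, and its lowest KO-labelled value stood above its highest WT value by more than the span of either group. The mean was 4.84-fold higher, at 2.83 ± 0.194 FPKM in WT against 13.7 ± 0.786 FPKM in KO-labelled libraries. The log2 difference of 1.94 ± 0.07 (SE) had a limma adjusted p of 7.95e-07.

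Itgam (ENSMUSG00000030786, chromosome 7, 128062640 to 128118491) encodes αM, the complement receptor chain widely used as a myeloid marker. Its level was low, at 2.20, 2.37 and 2.83 FPKM in WT and 2.10, 2.79 and 3.36 FPKM in KO-labelled libraries, and the groups overlapped. The log2 difference was 0.10 with a 95% interval from -0.23 to 0.44 and a limma adjusted p of 0.547, and it turned to -0.01 without KO-labelled replicate 3. The level of Itgam carries a reservation: 68.7% of its exon length, 3450 of 5024 bases, is shared with the predicted gene Gm49368 on the same strand, which is listed at 0 in all 6 libraries. How fragments in shared exons were assigned is not given in the sources used here. Counted per unshared exon length alone, an alternative chosen after this overlap was seen, Itgam would stand at 7.87 ± 1.03 FPKM in WT against 8.78 ± 2.01 FPKM in KO-labelled libraries.

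Itgax (ENSMUSG00000030789, chromosome 7, 128129547 to 128150657) encodes αX, a chain of dendritic cells and some tissue macrophages. It was below the level tested, at 0.234, 0.482 and 0.299 FPKM in WT and 0.339, 0.254 and 0.272 FPKM in KO-labelled libraries, from 104 and 92 fragments in all. The groups overlapped, and an exact two-sided permutation test gave p = 0.7. Itgad, which encodes the remaining β2 partner αD, had 2 fragments in the WT libraries and 0 in the KO-labelled libraries. Itgam, Itgax and Itgad lie next to each other on chromosome 7, with gaps of 11.1 and 3.72 kb on either side of Itgax, and Itgal lies 794 kb before Itgax. Of these 4 neighbours, Itgal alone passed the test, and Itgax and Itgad were not tested.

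Around β1, the beta chain itself rose, while the α4, α5 and αv chains fell. Itgb1 (ENSMUSG00000025809, chromosome 8, 128685654 to 128733200), whose promoter is shown above, encodes the beta chain of most matrix-binding integrins. Its level was 44.6, 44.9 and 42.0 FPKM in WT and 113, 117 and 119 FPKM in KO-labelled libraries. Every KO-labelled value was above every WT value, and the mean rose 2.66-fold, from 43.9 ± 1.58 to 116 ± 3.07 FPKM. The log2 difference was 1.39 ± 0.04 (SE), with a limma adjusted p of 5.00e-07.

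Itga4 (ENSMUSG00000027009, chromosome 2, 79255426 to 79333123) encodes α4, which pairs with β1 in VLA-4 and with β7. It was the most abundant of the 10 chains in WT, at 77.3, 75.0 and 74.4 FPKM, and stood at 18.7, 19.3 and 20.3 FPKM in KO-labelled libraries. The groups were far apart, and α4 moved opposite to β1. Its mean fell 3.89-fold, from 75.6 ± 1.52 to 19.4 ± 0.798 FPKM, and the log2 difference of -1.91 ± 0.05 (SE) had a limma adjusted p of 1.35e-07. The antisense gene Cerkl shares 8.04% of the exon length of Itga4 and stood at 0.169 FPKM in WT against 0.0556 FPKM in KO-labelled libraries.

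Itga5 (ENSMUSG00000000555, chromosome 15, 103344286 to 103366763) encodes α5, whose only partner is β1 and whose ligand is fibronectin. Its level was 27.0, 26.4 and 26.2 FPKM in WT and 19.9, 20.4 and 20.2 FPKM in KO-labelled libraries. The values did not overlap, but the step was small, 1.32-fold. The log2 difference was -0.38 ± 0.04 (SE), with a limma adjusted p of 0.000200.

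Itgav (ENSMUSG00000027087, chromosome 2, 83724397 to 83806916) encodes αv, the chain of the vitronectin receptors, which also bind osteopontin and bridging proteins on dying cells. Its level was 10.3, 10.7 and 10.3 FPKM in WT and 7.53, 6.98 and 7.67 FPKM in KO-labelled libraries, again without overlap. The mean fell 1.41-fold and the log2 difference was -0.45 ± 0.06 (SE), with a limma adjusted p of 0.000415. The 4 chains that fell thus comprise 1 large change, in Itga4, and 3 changes below 1.5-fold.

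Itgb5 (ENSMUSG00000022817, chromosome 16, 33829665 to 33949338) encodes β5, which pairs with αv alone and takes part in the uptake of apoptotic cells. Its level was 10.99, 11.2 and 11.6 FPKM in WT and 27.8, 25.8 and 29.1 FPKM in KO-labelled libraries. The groups did not overlap, and β5 moved opposite to αv. The means, 11.3 ± 0.335 and 27.6 ± 1.64 FPKM, differed 2.45-fold, with a log2 difference of 1.22 ± 0.06 (SE) and a limma adjusted p of 3.18e-06. A near-identical predicted gene, Gm38317, had 55 fragments over all 6 libraries.

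Itgb3 (ENSMUSG00000020689, chromosome 11, 104608000 to 104670476) encodes β3, the partner of αv on osteoclasts and of αIIb on platelets. It had no fragment in the 3 WT libraries and stood at 0.0706, 0.0516 and 0.0443 FPKM in KO-labelled libraries, from 11, 6 and 5 fragments. Against a floor of 3 fragments per WT library, 0.0237 FPKM, the KO-labelled mean was at least 2.34-fold higher, and the exact two-sided permutation p was 0.1, the smallest that 3 libraries against 3 can give. The floor covers counting error only. The level stayed far under 1 FPKM in both groups.

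**Figure D2:**
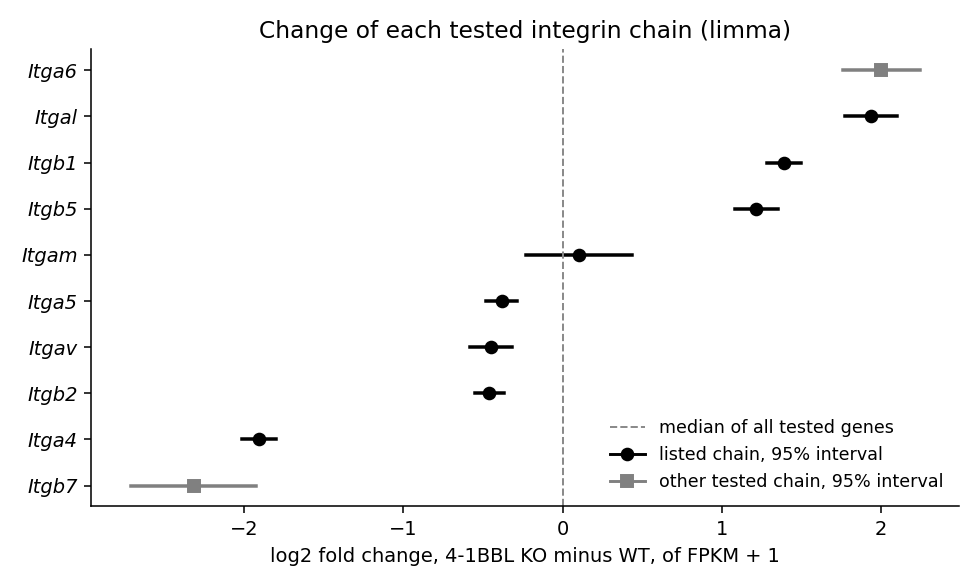
Log2 difference of FPKM + 1, KO-labelled minus WT, for the 10 integrin chain genes that were tested, with 95% intervals from limma. Black circles are the 8 tested members, grey squares are Itga6 and Itgb7, and the dashed line is the median of all tested genes at 0.0055. Of the 8 tested members, only Itgam has an interval that includes 0, from -0.23 to 0.44. Itga6 and Itgb7 passed the filter through 1 genotype only, so their intervals are descriptions.

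The order of the 10 chains by level differed between the genotypes. In WT it ran Itga4, Itgb2, Itgb1, Itga5, Itgb5, Itgav, Itgal, Itgam, Itgax and Itgb3, and of all neighbours in that order only Itgal and Itgam overlapped between libraries. In KO-labelled libraries it ran Itgb1, Itgb2, Itgb5, Itga5, Itga4, Itgal, Itgav, Itgam, Itgax and Itgb3, and of the neighbours only Itga5 and Itga4 overlapped. The most abundant transcript thus encoded an alpha chain in WT and a beta chain in KO-labelled libraries. Per principal transcript length, Itgav would stand above Itgb5 in WT, and Itga4 above Itga5 in KO-labelled libraries. Per unshared exon length, Itgam would stand above Itgal in WT and below it in KO-labelled libraries, where the mean of Itgam would also pass that of Itgav.

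The other integrin chains matter for the pairs, because Itgb1 and Itga4 have partners outside the 10 members. Of 16 further chain genes, 3 had a mean of at least 1 FPKM in either genotype. Itga6 encodes α6, a laminin receptor chain, and was at 0.498, 0.240 and 0.323 FPKM in WT and 4.28, 4.37 and 4.57 FPKM in KO-labelled libraries. It passed the filter only through the KO-labelled libraries, so its limma log2 difference of 2.00 ± 0.10 (SE) is a description.

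Itgb7 encodes β7, the partner of α4 in the gut-homing receptor and of αE. It stood at 9.33, 6.86 and 6.26 FPKM in WT and at 0.971, 0.660 and 0.453 FPKM in KO-labelled libraries, with no overlap. The mean was 10.8-fold lower, with a log2 difference of -2.32 ± 0.17 (SE). Like Itga6, Itgb7 passed the filter through its higher group only, and its difference is likewise a description. Itga9 encodes α9, a β1 partner close to α4 in sequence, and had 2 fragments over the WT libraries against 284, 287 and 181 fragments in KO-labelled libraries, a mean of 1.51 ± 0.346 FPKM. It was not tested, since its mean over the 6 libraries was 0.756 FPKM.

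Of 24 known alpha and beta pairs considered, 8 consist of members on both sides. Both chains had a mean of at least 1 FPKM for 7 pairs in WT: αLβ2, αMβ2, α4β1, α5β1, αvβ1, αvβ5 and α4β7. In KO-labelled libraries this held for 8 pairs, of which 6 were also in the WT set. The set lacked α4β7, for which Itgb7 was under the limit, and held α6β1 and α9β1, for which Itga6 and Itga9 were above it. Outside both sets were αXβ2, for want of Itgax, and αvβ3 and αIIbβ3, for which Itgb3 did not exceed 0.0706 FPKM in any library.

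The less abundant chain of a pair is taken here as a description of the most that the transcripts could supply. For αLβ2 that chain was Itgal in both genotypes, so its level was 2.83 FPKM in WT against 13.7 FPKM in KO-labelled libraries. For α4β1 the less abundant chain changed: it was Itgb1 in WT, at 43.9 ± 1.58 FPKM, and Itga4 in KO-labelled libraries, at 19.4 ± 0.798 FPKM, a 2.26-fold lower level. Although Itgb1 rose, α4β1 was thus lower by this measure per exon length. In recovered fragments, not per length, the less abundant chain was Itgb1 in WT, at 3889, 3802 and 3819. It was Itga4 in KO-labelled libraries, at 6907, 5308 and 5430, so the direction for α4β1 turned with the measure. The measure takes each pair alone although several alpha chains share β1. In WT those alpha chains summed to 114 FPKM against 43.9 FPKM for Itgb1, so the levels of β1 pairs cannot be added.

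For α5β1 the alpha chain was the less abundant in both genotypes and the level went from 26.6 to 20.2 FPKM. For αvβ1 and αvβ5 it was Itgav, at 10.4 and 7.39 FPKM, so the higher Itgb5 level did not enter. That holds per exon length as deposited: per length of the principal transcript, chosen after seeing the data, Itgav over Itgb5 was 1.303 in WT, and Itgb5 would be the less abundant chain there. In recovered fragments it was Itgb5 in WT, at 834, 825 and 921, and Itgav in KO-labelled libraries, at 2134, 1477 and 1576. The direction for αvβ5 thus turned in fragments. For αMβ2 it was Itgam, whose groups overlapped. Of the 6 pairs whose chains reached 1 FPKM in both genotypes, 5 did not overlap and had an exact permutation p of 0.1, adjusted over the 9 pairs plotted to 0.1125, and αMβ2 had 0.7. Of all tested genes 67.4% did not overlap either, so nothing particular to the pairs is read from that count. The pairs α6β1, α9β1 and α4β7 entered through 1 genotype only, so their separation is a description. The adjusted value counts them in, so nothing is read from it. The levels of αvβ1 and αvβ5 are the same Itgav values and not separate results. With 3 libraries against 3 the permutation test cannot go below 0.1. Within a genotype each level rests on 1 chain's transcript, so it is the same measurement as that chain's level above. For α4β1 that chain differed between the genotypes, so its difference sets Itgb1 in WT against Itga4 in KO-labelled libraries.

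**Figure D3:**
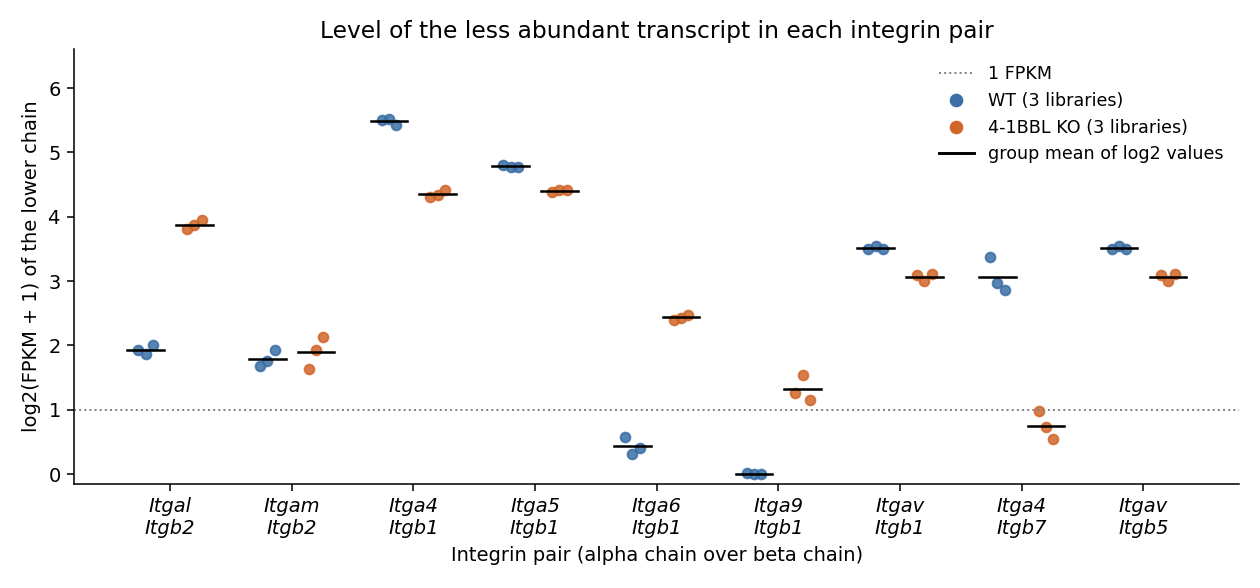
Level of the less abundant of the 2 transcripts of each of 9 integrin pairs, as log2(FPKM + 1), in each library. Points are libraries, bars are group means of the log2 values, and the dotted line marks 1 FPKM. Per exon length as deposited, the pairs αLβ2, α6β1 and α9β1 are higher in KO-labelled libraries, αMβ2 overlaps, and the other 5 are lower. For α4β1 and αvβ5 the direction turns in recovered fragments, not per length.

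Per exon length, the balance of the chains around β1 went the other way in the 2 genotypes. The alpha chains that can pair with β1 summed to 116, 113 and 112 FPKM in WT and to 52.1, 53.1 and 54.2 FPKM in KO-labelled libraries. Divided by Itgb1, the sum was 2.59 ± 0.0733 in WT and 0.456 ± 0.00313 in KO-labelled libraries, so per exon length the alpha chain transcripts exceeded the β1 transcript in every WT library and were below it in every KO-labelled library. The exact permutation p was 0.1, and 0.1 after adjustment over the 11 ratios computed. Exon length sets the level of this ratio: in recovered fragments, not per length, it was 7.31 in WT and 1.06 in KO-labelled libraries. Both means were then above 1, so the reversal depends on the length used, while the ratio stayed lower in KO-labelled libraries. Itga4 over Itgb1 alone went from 1.72 ± 0.0508 to 0.167 ± 0.00270, a 10.3-fold difference made of opposite changes in both chains.

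Among the alpha partners of β1, Itga4 made up 66.5% ± 0.227 of the summed FPKM in WT and 36.6% ± 0.782 in KO-labelled libraries. The share of Itga5 went from 23.4% ± 0.0327 to 37.9% ± 0.552, and that of Itgav from 9.19% to 13.9%, although both transcripts fell. Itga6 held 0.311% in WT and 8.30% in KO-labelled libraries. The ratio of Itga4 to Itga5 was 2.85 ± 0.0125 in WT and 0.964 ± 0.0341 in KO-labelled libraries, so per exon length Itga4 was the more abundant of the 2 in WT and overlapped with Itga5 in KO-labelled libraries. In recovered fragments, not per length, that ratio was 8.07 and 2.73, and per principal transcript length it was 3.62 and 1.23.

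Around β2, the alpha chains αL, αM, αX and αD summed to 5.64 ± 0.460 FPKM in WT against 16.7 ± 1.38 FPKM in KO-labelled libraries. Over Itgb2 this was 0.111 ± 0.0102 and 0.458 ± 0.0451, a 4.11-fold difference. Per exon length, the β2 transcript was more abundant than its alpha chains in every library. Counted in fragments, not per length, the ratio was 0.211 and 0.943, and with Itgam per unshared exon length it was 0.218 and 0.623. In fragments the alpha chains exceeded β2 in KO-labelled replicate 3, with 1825 for Itgal, 323 for Itgam and 25 for Itgax against 2092 for Itgb2. Itgal held 50.2% ± 2.81 of the sum in WT and 81.9% ± 2.08 in KO-labelled libraries, and Itgam held 43.6% ± 2.12 and 16.3% ± 2.46. With Itgam per unshared length the share of Itgal was 25.7% and 60.5%, so the level of the shares depends on how Itgam was counted, while Itgal held the larger share in KO-labelled libraries both ways.

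Between the beta chains, Itgb1 over Itgb2 was 0.865 ± 0.0218 in WT and 3.19 ± 0.134 in KO-labelled libraries. Per exon length, the matrix-binding beta chain was thus the less abundant of the 2 in every WT library and the more abundant in every KO-labelled library. In fragments, not per length, the ratio was 1.157 and 4.26, so which chain is more abundant in WT turns with the measure. Itgav over Itgb5 went from 0.926 ± 0.0351 to 0.268 ± 0.00391. This ratio was 1.303 and 0.3773 per principal transcript length and 2.8 and 0.8108 in fragments, so the more abundant chain in WT turns here too, while both ratios kept their direction between the genotypes. Each of these ratios had an exact permutation p of 0.1.

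**Figure D4:**
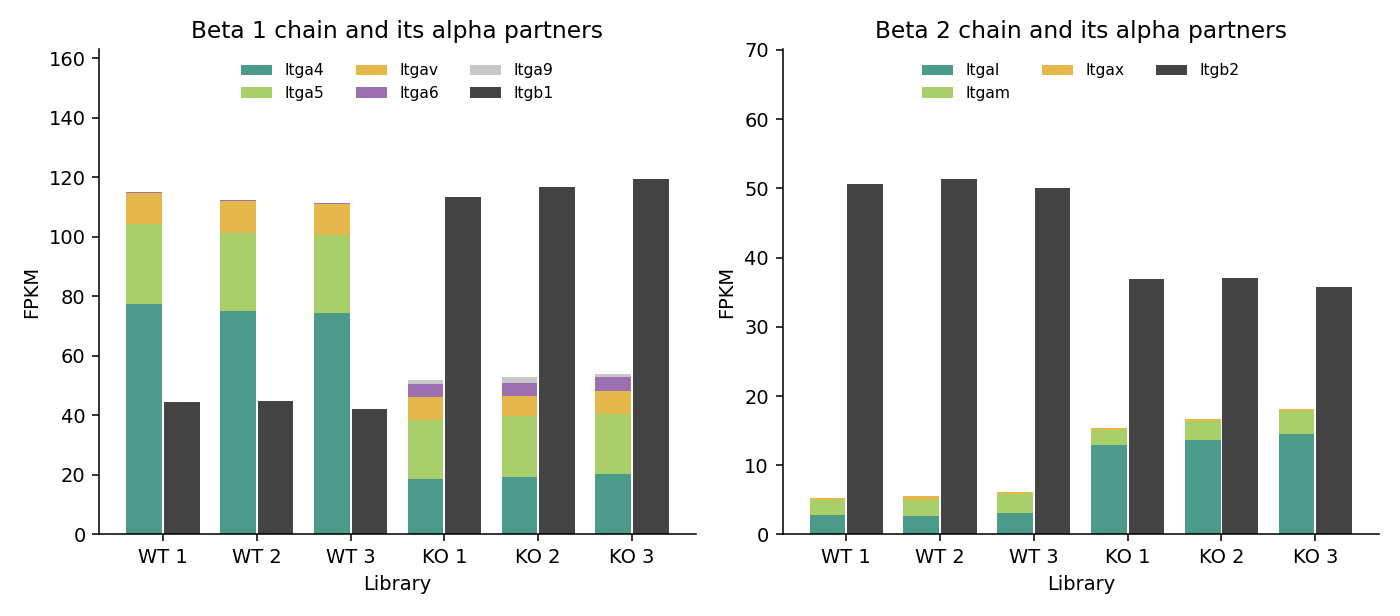
FPKM in each library of the alpha chains that pair with β1 (left panel) and with β2 (right panel), stacked, beside the beta chain itself in dark grey. The stacked alpha chains are taller than the Itgb1 bar in the 3 WT libraries and shorter in the 3 KO-labelled libraries, and they stay below the Itgb2 bar in all 6 libraries.

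The tested genes whose levels over the 6 libraries lay closest to Itgb1, by Euclidean distance of log2(FPKM + 1), were Sdc4 (syndecan 4) at 0.248, Cndp2 at 0.466 and Itm2b at 0.477. Closest to Itgb2 were Fasn (fatty acid synthase) at 0.107, Chtop at 0.122 and Manf at 0.159. The measure takes level and difference together over only 6 libraries in 2 groups.

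Adaptors connect integrins to actin and switch them on. Of 28 adaptor genes, 20 were tested, of which 5 rose, 11 fell and 4 did not pass, at a median log2 difference of -0.18 against 0.0055 for all tested genes, of which 30.6% rose and 30.2% fell. Without Vcl, which passed the filter through WT only, 5 of 19 rose and 10 fell. Tln1 (talin 1), which binds the beta chain tail and activates integrins, fell 1.89-fold, from 83.7 ± 2.34 to 44.2 ± 1.95 FPKM. Actn1 (α-actinin 1), an actin cross-linker, fell 2.10-fold, from 43.0 to 20.4 FPKM. Vcl (vinculin) was at 4.46 FPKM in WT against 0.958 in KO-labelled libraries, a description, with 25.5% of its exon length shared with the antisense gene Ap3m1. By contrast Fermt3 (kindlin-3), the co-activator of leukocyte integrins, rose from 113 to 127 FPKM, a log2 difference of 0.16 ± 0.04 (SE) with a limma adjusted p of 0.0139. Rap1b, the small GTPase that drives integrin activation, rose 1.35-fold, from 102 to 137 FPKM.

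Among 19 kinase and docking genes, 18 were tested, of which 10 rose, 6 fell and 2 did not pass. The list had a median log2 difference of 0.16, and of all tested genes 30.6% rose and 30.2% fell. Fgr, a Src family kinase that acts downstream of β2 integrins, was at 4.60 ± 0.0965 FPKM in WT against 0.624 ± 0.174 in KO-labelled libraries. Fgr and Bcar1 passed the filter through WT only, so their differences are descriptions, and without them 10 of 16 rose and 4 fell. Fyb, an adaptor for β2 integrin signalling, rose 3.35-fold, from 23.2 ± 0.693 to 77.7 ± 6.95 FPKM, and Vav2, a guanine nucleotide exchange factor, rose from 2.24 to 6.24 FPKM. The ITAM adaptors used by β2 integrins were abundant. Tyrobp (DAP12) stood at 230.1 FPKM in WT against 221 in KO-labelled libraries, and limma gave an adjusted p of 0.402. Fcer1g (the Fc receptor γ chain) rose from 149 to 189 FPKM.

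Integrin ligands were mostly not transcribed at 1 FPKM. Of 37 ligand genes, 13 were tested, of which 6 rose, 3 fell and 4 did not pass. The list had a median log2 difference of 0.17, and of all tested genes 30.6% rose and 30.2% fell. C3, whose fragment iC3b is bound by αMβ2 and αXβ2, rose 22.1-fold, from 9.74 ± 0.249 to 215 ± 2.56 FPKM. Emilin1, a matrix protein bound by α4β1 and α9β1, was at 0.0787 FPKM in WT, from 25 fragments, and at 8.26 ± 0.326 FPKM in KO-labelled libraries, and passed the filter through the latter only. Without it, 5 of 12 ligand genes rose and 3 fell. Spp1 (osteopontin), bound by αv integrins, α4β1 and α9β1, was the most abundant ligand and fell 3.58-fold, from 1028 ± 8.75 to 287 ± 4.86 FPKM.

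Ligands of the pairs above were also looked up once their values were known. The ICAMs are bound by αLβ2: Icam1 rose from 15.2 to 20.9 FPKM and Icam2 from 1.57 to 6.66 FPKM. Vcam1, bound by α4β1, had 0 fragments in WT and 9 in KO-labelled libraries. Fn1 (fibronectin), the ligand of α5β1, had 2 and 1 fragments. The cells thus transcribed ICAM genes, and hardly any Vcam1 or Fn1.

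Of 18 membrane proteins that associate with integrins, 16 were tested, of which 7 rose, 8 fell and 1 did not pass. The list had a median log2 difference of -0.16. Of all tested genes 30.6% rose and 30.2% fell, and nothing particular to the list is read from its count. Sirpa, the receptor of CD47, rose 2.98-fold, from 69.6 ± 0.316 to 207 ± 7.10 FPKM. Sdc4 (syndecan 4), a co-receptor of β1 integrins on fibronectin, rose 2.97-fold, from 42.2 ± 0.774 to 125 ± 5.31 FPKM, and Sdc1 (syndecan 1) rose from 5.82 to 14.1 FPKM. Bsg (basigin), with the highest mean of the list over the 6 libraries, fell 1.54-fold, from 248 to 161 FPKM.

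Integrins are taken up and returned to the surface by endosomes. Of 18 trafficking genes, 17 were tested, of which 7 rose, 8 fell and 2 did not pass. The list had a median log2 difference of 0.02, and of all tested genes 30.6% rose and 30.2% fell. Dab2, a clathrin adaptor for β1 integrins, rose 6.21-fold, from 5.40 ± 0.105 to 33.5 ± 2.43 FPKM. Numb, another endocytic adaptor of beta chains, fell 2.22-fold, from 19.4 to 8.77 FPKM, so these adaptors moved in opposite directions. Arf6, a GTPase of integrin recycling, fell 1.84-fold, from 167 to 90.7 FPKM. Hax1, which binds an integrin beta tail, fell from 142 to 62.2 FPKM and has a near-identical copy in the genome, and Rcc2 fell from 208 to 152 FPKM.

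Markers of other cells that carry these integrins were set beside the results. In the T cell list, 2 of 7 markers reached 1 FPKM in WT and 1 in KO-labelled libraries, with sums of 3.57 to 3.77 and 2.77 to 2.84 FPKM. These were Cd5 and Lck in WT, and Cd5 in KO-labelled libraries, while Cd3e, Cd3g and Trac were at 0 in all 6 libraries. In the platelet list, 0 of 7 and 1 of 7 did, with sums of 0.252 to 0.618 and 16.6 to 18.2 FPKM. The latter came from Pf4, at 16.3 FPKM in KO-labelled libraries and 0 in WT, while Gp1bb was at 0 in all libraries and Itga2b, the platelet alpha chain, was at 0.0396 and 0.0381 FPKM. In the dendritic cell list, none of 6 reached 1 FPKM, sums were 0.241 to 0.315 and 0.0858 to 0.187 FPKM, and Clec9a, Siglech and Ccr7 were at 0. In the neutrophil list, none of 7 had a mean of 1 FPKM in either group, but sums were 0.0675 to 0.141 FPKM in WT and 0.710 to 1.26 FPKM in KO-labelled libraries. The latter came mostly from S100a8, and in replicate 3 also from Camp, while S100a9 and Ly6g were at 0 in all 6. In the mast cell list, none of 5 did, and Mcpt4, Tpsb2, Cma1 and Fcer1a were at 0. In the fibroblast list, none of 7 did, and Col1a1, Col1a2, Col3a1, Dcn and Lum were at 0. In the B cell and endothelial lists, 1 of 5 markers each reached 1 FPKM, in KO-labelled libraries only: Cd79b at 1.54 FPKM and Vwf at 1.16 FPKM. The part of the markers that moved with the genotype was not tested.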

How the data were processed

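RNA of 3 WT and 3 KO-labelled libraries was measured. The authors deposited 1 FPKM value per gene and library. Per the submitters' processing notes, the tools were HISAT2 2.0.5 and featureCounts 1.5.0-p3, on mm10. The annotation release, strand setting and treatment of fragments that map to several places or genes are, in the sources used here, not given, so values of overlapping or copied genes are uncertain.

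Symbols came from GENCODE M21, on the same build, and 54495 of 54532 identifiers matched. Depth was recovered from the steps of FPKM times exon length: 97.8% to 98.0% of values of at most 200 fragments lay within 0.1 of a whole number, where chance gives 20%. Depths were 21.4, 20.7 and 22.3 M (mega) fragments for WT and 26.4, 19.7 and 19.1 M for KO-labelled libraries. Floors of 3 fragments cover counting error only, while the 95% intervals are from limma and the spread between libraries. Within groups, libraries differed by more than counting noise (chi-square per gene of 5.88 to 15.7, where counting alone gives 1), and all 6 were kept.

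Testing used limma 3.58.1 (R 4.3.3) on log2(FPKM + 1), trend included, for genes averaging 1 FPKM or more, with Benjamini-Hochberg adjustment over all 10843. This scale understates changes of low genes, and single-gene folds are ratios of mean FPKM. Ratios, shares and pairs were compared by exact two-sided permutation of the 6 libraries (SciPy 1.17.1). Copies were sought with BLAST+ 2.17.0+ at 95% identity over 150 or more bases and 80% of the shorter transcript. The test was checked on simulated data in which far fewer genes changed than were called here, so that check does not cover the present setting.

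The members and lists were chosen with earlier results of these data known. Named genes are all members, other integrin chains at 1 FPKM or more in a group, and of each list the 3 largest changes among those called and the 2 highest means, plus the 3 genes closest to Itgb1 and Itgb2. Alternatives were other pseudocounts, filters, scalings and models, a replicate block, each library left out, and other lengths for ratios. The value of 1 marker gene is not reported here.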

Additional observations from a re-analysis of the deposited data

How the results depend on the processing

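The 7 integrin chains past the threshold kept their direction and their call under all 14 alternatives run on them: a pseudocount of 0.1, no filter or a mean of at least 5 FPKM, rescaling to TPM, quantile normalization, no trend, voom on recovered fragments, a replicate block and each library left out. The log2 difference ranged from 1.89 to 2.26 for Itgal, from -1.96 to -1.85 for Itga4, from 1.36 to 1.497 for Itgb1 and from 1.18 to 1.36 for Itgb5. Itgam, which did not pass, reversed to -0.0104 without KO-labelled replicate 3 (limma adjusted p 0.952, and 0.140 to 0.952 over its 13 alternatives) and ranged up to 0.2346 without the other libraries, and the cause was not tested. Without a filter, 8 of 10 members passed, 4 of them higher, where 7414 of 20848 tested genes passed. The added member was Itgb3, with 0 fragments in WT and 22 in KO-labelled libraries, so its call is a description. With the replicate block, 7 members and 6194 genes passed, against 6594 without it. Same-numbered libraries did not deviate together (correlations of -0.0339, 0.0469 and -0.0318). Whether a number marks a shared culture or day is not in the labels, and these values cannot decide it. Leaving out a library gave 5835 to 6408 genes, and the stricter filter gave 4710 of 7290 tested.

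Ratios of chains moved with the length used, in WT and KO-labelled libraries respectively. In fragments, not per length, the alpha sum over Itgb1 was 7.312 and 1.059, and over Itgb2 it was 0.2111 and 0.9426. Per length of the principal transcript, an alternative chosen after seeing the data, they were 3.324 and 0.5855, and 0.1278 and 0.5492. With Itgam per unshared exon length, also chosen after seeing the data, the sum over Itgb2 was 0.2181 and 0.6231. The lengths differ by construction. Depth limits Itgb3, Itgax and Itga9, which rest on few fragments in at least 1 group.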

Other observations

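Among the integrin chains under 1 FPKM in both genotypes, some still differed between the libraries. Itgb4, the β4 chain of the laminin receptor α6β4, was at 1.03, 0.639 and 0.794 FPKM in WT and at 0.173, 0.224 and 0.283 FPKM in KO-labelled libraries, from 371 and 101 fragments. Its partner Itga6 moved the other way. Itga7, another laminin receptor chain, was at 0.424 ± 0.0818 FPKM in WT against 0.0184 ± 0.0216 FPKM in KO-labelled libraries, from 220 and 11 fragments. Itga10, a collagen receptor chain, overlapped between genotypes at 0.238 and 0.214 FPKM, and Itgae, the αE chain, overlapped at 0.0889 and 0.126 FPKM. Itga1, Itga2, Itga11 and Itgb6 were listed at 0 in all 6 libraries. These levels were below the filter and were not tested by limma. They are given as values chosen after they were seen.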
